A study of Mus musculus with 26 samples.

Results

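The genes of the extracellular adenosine pathway and its neighbouring surface enzymes studied here, 7 of the 35944 genes with a value, were followed in TCRTg101, CD8+ T cells that carry a transgenic T cell receptor for an antigen of the C1498 leukemia. They were chosen by name, as Entpd1, Nt5e, Adora2a, Adora2b, Ada, Dpp4 and Cd38. C1498 is a transplantable mouse leukemia cell line, and the receptor comes from 1 T cell clone, so every library describes cells of 1 specificity. The labels give all mice as C57BL/6, wild type and 6 weeks old, whereas the methods of the study describe Tg101 mice on a Rag2-/- background, transfer of their T cells into hosts, and intravenous C1498 cells 1 day later. RNA of sorted TCRTg101 was sequenced as low-input libraries in 2 series, named TG and XC in the titles.

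The 3 control libraries came from spleens without leukemia, replicates 1 and 2 at day 0 and replicate 3 at day 18. The labels call replicates 1 and 2 naive Tg101 and replicate 3 Tg101 from untreated mice, so the controls differ in more than the day. The other libraries came from leukemia-bearing hosts: 1 of undivided cells from spleen at day 18, which had kept a dye that dividing cells dilute, 2 from spleen at day 7 (spleen early), 1 from spleen at day 14 (spleen mid), 2 from liver at day 7 (liver early), 3 from liver at day 13 and 14 (liver mid) and 2 from liver at day 16 and 18 (liver late). Control replicate 1, liver mid replicate 1 and liver late replicate 1 were the 3 libraries of series TG. The labels do not say that replicates came from separate mice, so p-values measure the spread between these samples, which may be technical. Depth ran from 22918996 estimated counts in spleen early replicate 2 to 71358287 in liver mid replicate 1, with a median of 34349318 over the 14 low-input libraries.

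ATP that leaves a cell is a danger signal, and adenosine, made from it, restrains T cells. ENTPD1 (CD39) removes phosphates from ATP and ADP to give AMP, and NT5E (CD73) removes the last phosphate to give adenosine. Adenosine acts on the receptors ADORA2A and ADORA2B, which raise cyclic AMP in the cell, and adenosine deaminase (ADA) ends the signal by turning adenosine into inosine. DPP4 (CD26) is a surface peptidase of T cells that binds ADA in humans and can costimulate the cell. CD38 consumes NAD and can feed AMP into the same pathway, and CD39, CD38 and the inhibitory receptor PD-1 are known as markers of exhausted CD8+ T cells.

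The cells fit their label. All 12 CD8 T cell markers were above 1 CPM (counts scaled to the same library total, with TMM factors) in every one of the 14 libraries, and Cd8a lay between 506 and 1580 CPM. Pdcd1, the gene for PD-1, was 1.12, 1.41 and 2.43 CPM in the controls and 975 and 526 CPM in the late liver libraries. Several libraries stood apart. Liver early replicate 2 had 2.63 CPM of Pdcd1 and a summed naive marker level of 7750 CPM, near the controls, while liver early replicate 1 had 154 and 2870 CPM. Spleen early replicate 2 had the lowest depth and the most genes with at least 10 counts, 19841. The day 0 controls were high in markers of other blood cells. The 8 dendritic cell markers summed to 1820 and 1620 CPM in control replicates 1 and 2 and to 38.2 CPM in the day 18 control, with Cd74 the most abundant. The 11 macrophage and monocyte markers summed to 1250, 177 and 13.7 CPM, led by C1qb (345 CPM) in replicate 1, Lyz2 (37.9 CPM) in replicate 2 and Csf1r (3.63 CPM) in replicate 3, and the 6 erythroid markers, led by Hba-a2, to 5190, 20100 and 136 CPM.

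Against control, 3 of the 6 genes that could be tested differed at the mid and at the late liver stage. All controls came from spleen, and no liver library came from a host without leukemia. Tissue and leukemia therefore cannot be told apart in any comparison of liver with control. Nt5e and Adora2a were higher and Dpp4 was lower. Entpd1, whose late liver values lay above every control, did not pass, and neither did Cd38, whose values overlapped the controls, or Ada. The test was the quasi-likelihood test of edgeR, adjusted by Benjamini-Hochberg at 0.05, in a model of group and series over 11 libraries. It needed 10 counts in at least 6 libraries, which Adora2b did not reach. Of all 14616 genes tested, 31.3% passed in the mid and 37.5% in the late comparison, so 3 of 6 is near the background. DESeq2 called the same 3 at mid and also Ada at late, beside 37.3% and 42.5% of all genes. The median log2 fold change of the 6 genes was 1.27 in the mid and 1.82 in the late comparison, beside -0.06 and -0.03 over all genes. The 6 went both ways, and the mid median lies between Cd38 and Entpd1, which did not pass. With 1 library left out, these ran from 0.15 to 2.36 and from 0.66 to 2.34 at mid, so the median is not a stable value. The calls needed nearly all libraries, while the directions did not. Without either late replicate edgeR called none of all genes in the late comparison, and without control replicate 1 it called Nt5e alone of the 6, beside 1.05% of all genes. The mid comparison lost its calls of the 6 genes without control replicate 1 or 2, where 1 of all genes passed each time, and without mid replicate 1 or 3, where none did.

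**Figure D1:**
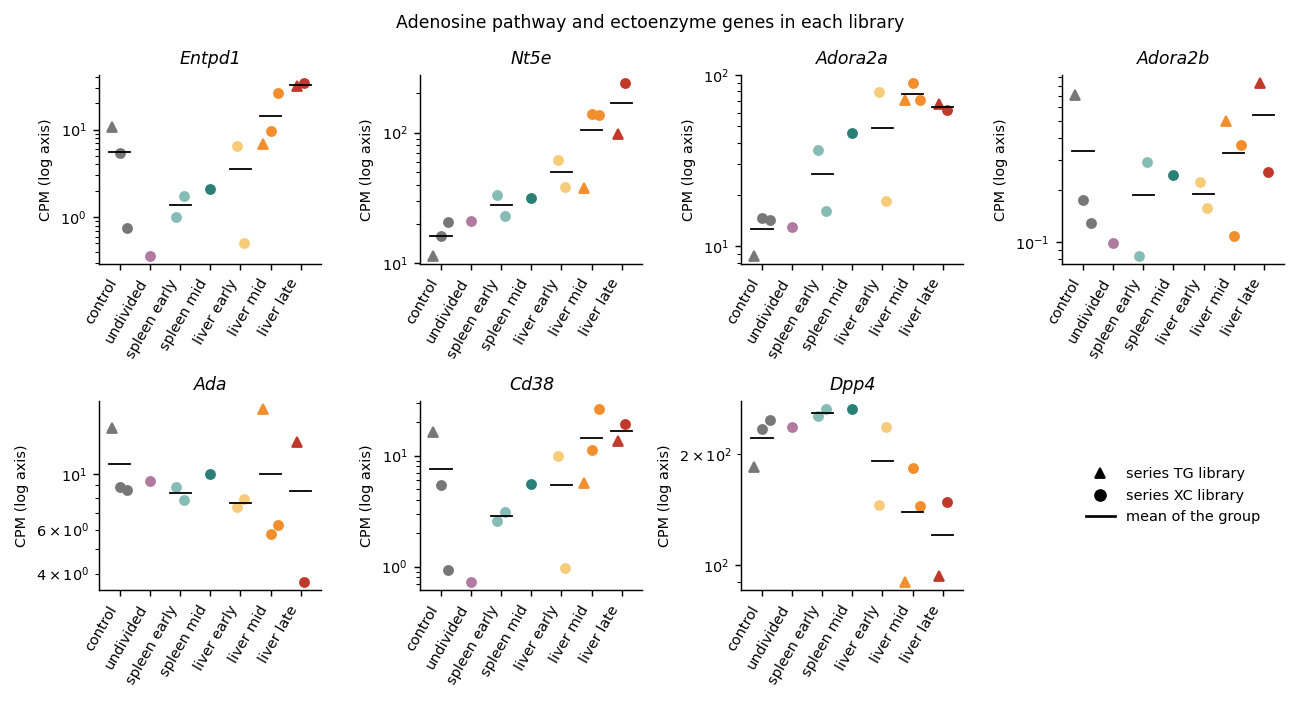
Level of each of the 7 genes in CPM on a log axis, 1 point per low-input library, in the order control, undivided, spleen and liver. Triangles are libraries of series TG, circles those of series XC, and bars are group means where a group has more than 1 library. Nt5e ranged from 11.5 to 20.8 CPM in the controls and reached 239 CPM in a late liver library, while Dpp4 was lowest, at 89.9 CPM, in a mid liver library.

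Nt5e, the enzyme that releases adenosine, had 11.5, 16.3 and 20.8 CPM in control replicates 1 to 3. It had 37.8, 139 and 137 CPM in the mid and 97.5 and 239 CPM in the late liver libraries. All 5 lay above all 3 controls, and the series TG library was the lowest of its group each time. The log2 fold change was 2.48 (SE 0.29, edgeR adjusted p = 0.0168) at mid and 3.43 (SE 0.32, edgeR adjusted p = 0.00627) at late, a 10.8-fold difference. Within series TG the late library was 8.48 times its control (1 against 1 library), and within series XC it was 12.9 times the mean of the 2 controls. From mid to late the difference was 0.95 (SE 0.31, edgeR adjusted p = 0.91), and the 2 groups overlapped.

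Nt5e stood above the controls in the early liver, early spleen and mid spleen libraries too, though by less. The early liver libraries had 61.7 and 38.3 CPM, the early spleen libraries 33.2 and 23.0 CPM, and the mid spleen library 31.4 CPM. The undivided cells had 21.0 CPM, next to the 20.8 CPM of the day 18 control, and a fitted log2 fold change against control of -0.05 (SE 0.41). Liver early replicate 2, which was close to the controls in Pdcd1, was thus above them in Nt5e. None of these differences from control passed, with log2 fold changes of 1.21 (SE 0.32) for the early liver, 0.39 (SE 0.32) for the early spleen and 0.55 (SE 0.39) for the mid spleen, at edgeR adjusted p = 0.454, 0.915 and 0.842.

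Adora2a, the high-affinity adenosine receptor of T cells, had 8.85, 14.6 and 14.2 CPM in the controls and 70.9, 89.3 and 71.1 CPM in the mid liver. In the late liver it had 67.5 and 62.2 CPM, all below the mid values and above every control. The log2 fold change was 2.62 (SE 0.48, edgeR adjusted p = 0.022) at mid and 2.43 (SE 0.52, edgeR adjusted p = 0.015) at late, and the late to mid difference of -0.19 (SE 0.52) did not pass. Within series TG the late library was 7.63 times its control, and within series XC it was 4.32 times the mean of the controls. The early liver libraries lay far apart, at 79.1 and 18.3 CPM, of which the first was as high as the mid liver and the second just above the controls. The early spleen had 36.5 and 16.1 CPM, the mid spleen 45.8 CPM and the undivided cells 13.0 CPM, within the control range. The log2 differences from control were 1.88 (SE 0.52, edgeR adjusted p = 0.454) in early liver, 1 (SE 0.55, edgeR adjusted p = 0.855) in early spleen and 1.80 (SE 0.65, edgeR adjusted p = 0.841) in mid spleen.

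Adora2b, the low-affinity receptor, was near the limit of detection in all libraries. It had between 3 and 47 estimated counts, below 1 CPM throughout. Its 3 highest values, 0.703, 0.503 and 0.827 CPM, were those of the 3 TG libraries, in control, mid and late liver alike, and the XC libraries ran from 0.0839 to 0.365 CPM. At these counts it did not enter the tests of the main fits.

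Ada, the enzyme that removes adenosine, also split by series. The TG libraries had 15.3 CPM in control, 18.1 in mid and 13.4 in late liver. The XC libraries had 8.88 and 8.66 CPM in control, 5.76 and 6.24 CPM in mid and 3.71 CPM in late liver. Within XC the late library was 2.36-fold below the controls, and within TG 1.14-fold below. In the model with the series as a term the log2 difference was -0.32 (SE 0.26, edgeR adjusted p = 0.357) at mid and -0.84 (SE 0.31, edgeR adjusted p = 0.0595) at late, so neither passed. The late difference did pass in DESeq2 (-0.80, adjusted p = 0.0369) and in edgeR on counts scaled from TPM (-0.92, edgeR adjusted p = 0.0478), while without the series term it was -0.38 (edgeR adjusted p = 0.682). The undivided, spleen and early liver libraries lay between 7.41 and 10.0 CPM.

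Levels of different genes were compared per length, as TPM (the deposited level per transcript length and depth). The ratio of Nt5e to Ada TPM was 0.317, 0.733 and 1.08 in the controls and 0.952 in undivided cells. It was 1.58 and 1.24 in early spleen, 1.31 in mid spleen, and 3.41 and 2.00 in early liver. In the mid liver it was 0.994, 10.1 and 8.96, and in the late liver 3.17 and 26.0. The ratio in the mid liver library of series TG overlapped the controls, and every other liver library was above them. Within series TG alone, the 0.994 of the mid and the 3.17 of the late liver were both above the 0.317 of the control.

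Dpp4 was the most abundant of the 7 genes per length in every library but 1: in liver late replicate 2 Nt5e exceeded it, at 53.1 against 35.6 TPM. Dpp4 had 184, 233 and 247 CPM in the controls, 236 CPM in the undivided cells, 253 and 264 CPM in the early and 264 CPM in the mid spleen. In the mid liver it had 89.9, 183 and 144 CPM and in the late liver 93.2 and 148 CPM, all below the lowest control, the 183 CPM of mid replicate 2 by the smallest margin. The log2 fold change was -0.74 (SE 0.22, edgeR adjusted p = 0.038) at mid and -0.83 (SE 0.26, edgeR adjusted p = 0.0342) at late. Within TG the mid and late libraries were 2.05-fold and 1.97-fold below the control, and within XC the means were 1.47-fold and 1.62-fold below. These calls were not stable to the omission of a library: at late none of the 5 fits without 1 library passed (edgeR adjusted p from 0.0565 to 0.19), and at mid 1 of 6 did (0.0471 to 0.16). Without the series term neither passed, at edgeR adjusted p = 0.181 and 0.119, with the direction kept. The early liver had 145 and 237 CPM, 1 value below and 1 within the control range, and -0.42 (SE 0.26, edgeR adjusted p = 0.596) on the log2 scale.

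**Figure D2:**
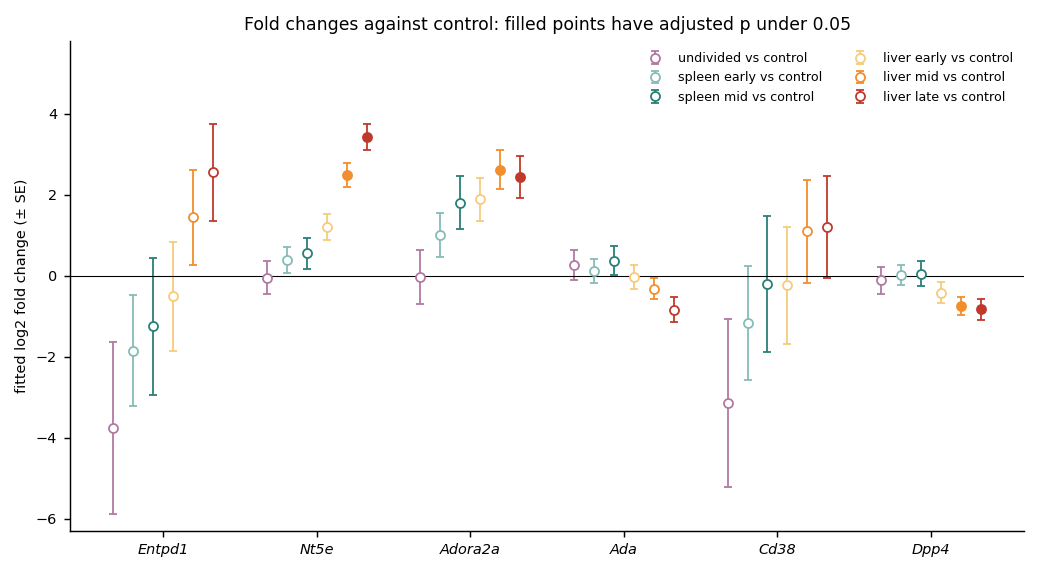
Fitted log2 fold change against control with its standard error for the 6 genes tested, in the undivided, spleen and liver groups. Filled points, with an edgeR adjusted p under 0.05, are the mid and late liver values of Nt5e, Adora2a and Dpp4. The bars of Entpd1 and Cd38 are the widest, with SE of 1.2 and 1.27 in the late liver against 0.26 for Dpp4.

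Entpd1, the first enzyme of the pathway, had 10.6, 5.41 and 0.746 CPM in the controls. The undivided cells had 0.364 CPM (11 estimated counts), the early spleen 1.01 and 1.73 CPM and the mid spleen 2.09 CPM. In the liver it had 6.51 and 0.501 CPM at early, 6.87, 9.64 and 26.0 CPM at mid and 31.1 and 33.9 CPM at late. The late values were above all other libraries, and the mid values overlapped the day 0 controls. The log2 fold change against control was 1.44 (SE 1.18, edgeR adjusted p = 0.363) at mid and 2.55 (SE 1.20, edgeR adjusted p = 0.126) at late, and 1.11 (SE 1.21, edgeR adjusted p = 0.959) from mid to late. Against the day 18 control alone it was 4.37 and 5.84. Entpd1 did not pass in that fit, in DESeq2 or in any fit that left out 1 replicate. Over the remaining alternative fits the lowest edgeR adjusted p was 0.00144 at mid and 1.4e-09 at late. Entpd1 thus passed in at least 1 of those, and its call turned on the setting. Within TG the late library was 2.93 times its control and within XC 11 times the mean of its controls. At mid the series differed in direction: the TG library was 1.54-fold below its control, whereas the XC mean was 5.79 times that of its controls.

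Cd38, the NAD-consuming enzyme, had 16.4, 5.45 and 0.94 CPM in the controls, 0.729 CPM in undivided cells, 2.55 and 3.10 CPM in early spleen and 5.53 CPM in mid spleen. The early liver had 9.89 and 0.971 CPM, the mid liver 5.70, 11.3 and 26.0 CPM and the late liver 13.6 and 19.4 CPM. All 5 mid and late values lay above control replicates 2 and 3, and they overlapped control replicate 1, the day 0 library of series TG. Without TMM scaling, mid replicate 1 had 4.65 CPM and lay below the 5.64 CPM of control replicate 2. The direction differed between the series. Within TG the mid and late libraries were 2.88-fold and 1.21-fold below their control, whereas within XC they were 5.84 and 6.07 times the mean of the controls. The log2 fold change was 1.09 (SE 1.28, edgeR adjusted p = 0.526) at mid and 1.20 (SE 1.27, edgeR adjusted p = 0.468) at late. It was 4.10 and 4.68 against the day 18 control alone. Cd38 did not pass in that fit, in DESeq2 or in any fit that left out 1 replicate. Over the remaining alternative fits its lowest edgeR adjusted p was 0.0455 at mid and 0.0215 at late, so it passed in at least 1.

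The day 0 controls were also the libraries high in markers of macrophages and dendritic cells, which are known to express both enzymes. The order of the 3 controls was the same for Entpd1, Cd38 and the summed markers of both cell types. In the late liver libraries the macrophage list summed to 58.3 and 29.8 CPM, with Cd68 the most abundant at 22.2 and 10.6 CPM and C1qb at 3.85 and 1.53 CPM, and the dendritic cell list to 86 and 40.8 CPM, with Cd74 at 41.4 and 19.2 CPM. These sums were below those of both day 0 controls and above the 13.7 and 38.2 CPM of the day 18 control. None of the 11 macrophage markers was at 0 there, whereas Clec4f and Marco were at 0 in the day 18 control. The part of these cells in the control values was not tested. In bulk RNA, fewer cells of a type and less RNA per cell cannot be told apart. Hepatocyte markers, led by Alb, summed to 312 and 70.0 CPM in the late liver, 189, 19.0 and 2.77 CPM in the mid liver and at most 0.357 CPM in the controls, and their part in the liver values was not tested either. The list of neutrophil and myeloid progenitor genes, which includes Kit, Cd34 and Mpo, summed to at most 6.5 CPM in the mid and late liver and to 184 CPM in control replicate 1.

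**Figure D3:**
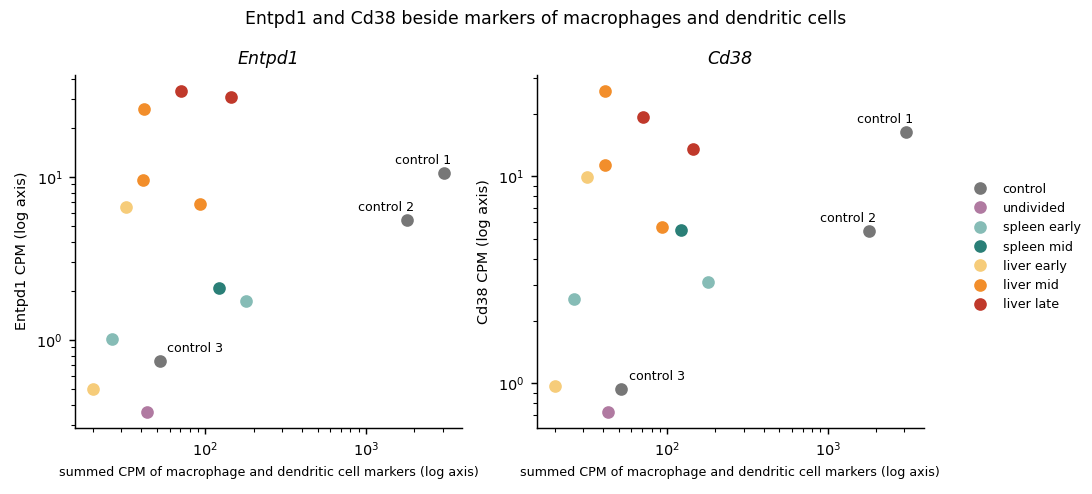
Entpd1 (left) and Cd38 (right) in CPM against the summed CPM of the macrophage, monocyte and dendritic cell markers, both on log axes, 1 point per low-input library. Control replicates 1 and 2 sit at the right with 10.6 and 5.41 CPM of Entpd1, and the day 18 control sits at the lower left with 0.746 CPM. The late liver libraries are the highest for Entpd1, at 31.1 and 33.9 CPM.

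Over the 14 libraries the log2 CPM of Entpd1 and Cd38 had a Pearson r of 0.956 and those of Nt5e and Adora2a of 0.836, the highest among the pairs of the 7 genes. The lowest was that of Entpd1 and Dpp4, at -0.731. Libraries of a group share their stage and series, so these are descriptions without a test. Among 9025 other genes with a mean log2 CPM of at least 3, those closest to Nt5e were Tnfrsf1b (r = 0.987), a receptor for tumor necrosis factor, Atl3 (0.979) and Prkca (0.974), a protein kinase C. Those closest to Adora2a were Tbx21 (0.983), which encodes the transcription factor T-bet, Zbtb32 (0.968) and Il12rb1 (0.967), a subunit of the interleukin-12 receptor. Serpina3g (0.948), Pik3ap1 (0.947) and Gabarapl1 (0.938) were closest to Entpd1. Pik3ap1 (0.98) and Serpina3g (0.93) also led for Cd38, followed by Fgr (0.907). Crim1 (0.978), Tbc1d8b (0.975) and Ifit2 (0.975) were closest to Dpp4, and Pcyt2 (0.943), Cdipt (0.94) and Ntpcr (0.926) to Ada.

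Entpd1 has a pair of start sites on chromosome 19, and the level of each could be followed because kallisto assigns counts to transcripts. The 250 bases before each start in RefSeq (GRCm38.p6, plus strand) are shown because both starts gave counts in the liver, and capitals mark matches to 2 of the 10 motifs searched on both strands. They are TGACG, the short form of the cyclic AMP response element (on this strand its complement CGTCA was found), and the core of the NFAT site, GGAAA.
Upstream start, chr19:40612116-40612365: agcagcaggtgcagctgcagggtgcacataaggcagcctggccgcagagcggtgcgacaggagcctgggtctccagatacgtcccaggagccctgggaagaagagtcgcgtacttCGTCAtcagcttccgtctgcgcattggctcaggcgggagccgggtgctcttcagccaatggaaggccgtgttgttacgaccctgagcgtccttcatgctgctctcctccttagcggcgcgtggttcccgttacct
Downstream start, chr19:40659520-40659769: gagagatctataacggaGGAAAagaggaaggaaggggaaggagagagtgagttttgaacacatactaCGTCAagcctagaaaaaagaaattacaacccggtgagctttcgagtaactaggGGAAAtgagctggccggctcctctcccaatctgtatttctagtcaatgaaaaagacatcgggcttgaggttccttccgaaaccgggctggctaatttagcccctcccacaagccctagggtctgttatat
TGACG matched at -135 before the upstream start and at -183 before the downstream start, counted from the start to the first base of the match. It is in 17.8% of all 32851 promoters of this length, counting those with the whole element. GGAAA matched at -233 and -130 before the downstream start alone and is in 55.6% of promoters. Neither window held the whole element TGACGTCA. Searched on both strands without a match there were also the AP-1 element (letters TGANTCA), the NR4A element (AAAGGTCA), the hypoxia response core (letters ACGTG, contained in the next motif), the E-box of MYC and its relatives (letters CACGTG), the EGR core (GCGGGGGCG), the STAT element (TTCNNNGAA) and the TATA box, spelled as TATAAA. In the same order these are in 1.5%, 6.7%, 1.3%, 16.6%, 6.0%, 2.6%, 7.0% and 12.4% of all promoters. A match describes the letters and not a bound site.

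Counts of the Entpd1 transcripts that begin within 1000 bases of either start were summed. The upstream start gave 15.4 and 16.4 CPM in the late liver, here without TMM scaling, and the downstream start 6.90 and 15.4. In the mid liver the upstream start gave 3.45, 4.26 and 10.0 and the downstream start 2.10, 5.10 and 14.4. In the controls the upstream start gave 7.33, 3.20 and 0.367 and the downstream start 3.51, 2.26 and 0.456. The upstream share was thus 69.1% and 51.5% in the late liver, 62.2%, 45.5% and 40.9% in the mid liver and 67.7%, 57.7% and 44.6% in the controls. The 3 series TG libraries, at 67.7%, 62.2% and 69.1%, had the highest share of their groups. The main transcripts of the starts also end, in the GENCODE annotation, at different sites, so the shares do not measure the use of the starts alone.

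**Figure D4:**
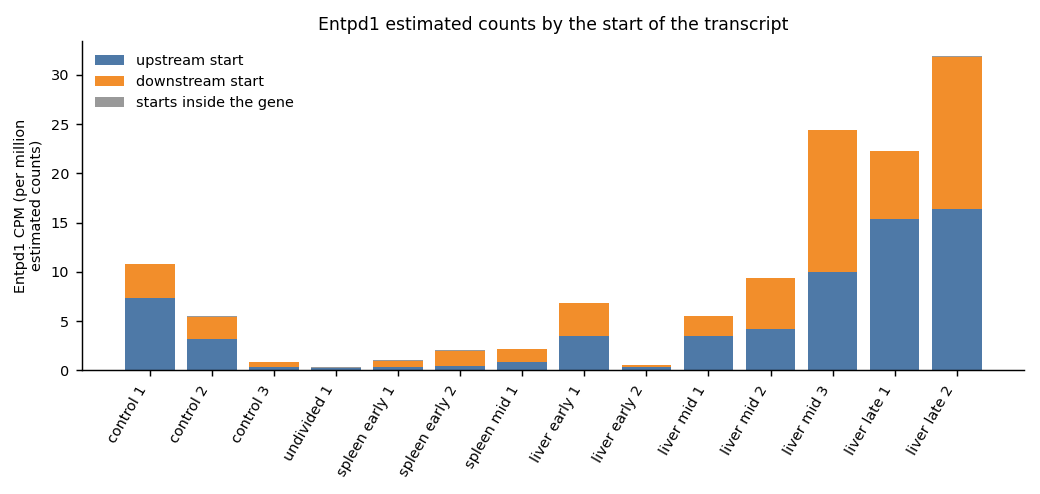
Entpd1 CPM in each low-input library, without TMM scaling, stacked by where the transcript begins: the upstream start, the downstream start 47404 bases further on, or inside the gene. Both starts contribute in the late liver, where the upstream start gave 15.4 and 16.4 CPM.

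The other 6 genes were dominated by 1 protein-coding transcript. The main transcript of Nt5e held between 87.43% and 96.31% of the counts of its gene over the low-input libraries and that of Adora2a between 92.92% and 98.98%. That of Dpp4 held between 70.29% and 94.23%, and its share was lowest in the control library of series TG. Nt5e lies at chr9:88327197-88372092 on the plus strand, Adora2a at chr10:75316877-75334784 on the plus strand and Dpp4 at chr2:62330073-62412231 on the minus strand (GRCm38).

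The undivided cells of day 18, taken from the spleen of a leukemia-bearing host, show these genes in cells that had not divided there. They had 2.45 CPM of Pdcd1 and 6500 CPM of summed naive markers, beside 2.43 and 6600 CPM in the day 18 control. None of the 6 passed against control (0% of all genes did). None had an unadjusted p under 0.05, as 1.25% of all genes had, and DESeq2 called 0 (0% of all genes). Entpd1 and Cd38 had the largest differences, -3.77 (SE 2.12) and -3.14 (SE 2.08) on the log2 scale. Against the day 18 control alone they were -1.05 and -0.39. Among the alternatives edgeR called both only where no count filter was applied. With 1 undivided library, its spread is taken from the other groups. The undivided cells came from spleen and the late cells from liver, so tissue and division cannot be told apart between them. The late liver against the undivided cells gave log2 fold changes of 6.32 (SE 2.37) for Entpd1, 4.34 (SE 2.18) for Cd38, 3.48 (SE 0.51) for Nt5e, 2.45 (SE 0.80) for Adora2a, -1.10 (SE 0.41) for Ada and -0.70 (SE 0.34) for Dpp4. None passed (0% of all genes did), with edgeR adjusted p from 0.103 to 0.246, while 4 of the 6 had an unadjusted p under 0.05, beside 25.9% of all genes. DESeq2 called 3, beside 13.5% of the genes to which it gave an adjusted p.

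At the early stage edgeR called 0 of the 6 genes in the liver against control, as it did 0% of all genes. Nt5e and Adora2a had an unadjusted p under 0.05, beside 10.2% of all genes, and DESeq2 called 2, beside 2.55%. Without liver early replicate 2 both passed, as did 13.2% of all genes, at edgeR adjusted p = 0.017 for Nt5e and 0.000394 for Adora2a, with 1 early library assumed to vary like the other groups. From mid to late liver edgeR again called 0 (0% of all genes), with 1 unadjusted p under 0.05, that of Nt5e (5.36% of all genes), and DESeq2 called 0 (0.219%).

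The spleen comparisons used a model of all 14 low-input libraries, in which 15465 genes were tested. Against control edgeR called 0 of 6 in early spleen (0% of all genes) and 0 of 6 in mid spleen (0.00647% of all genes). At an unadjusted p under 0.05 there were none in early spleen, beside 6.29% of all genes, and Adora2a alone in mid spleen, beside 5.14%. DESeq2 called 0 in both, beside 0.102% and 0.0776% of genes. Entpd1 and Cd38 had log2 differences of -1.86 (SE 1.37) and -1.17 (SE 1.41) in early and of -1.25 (SE 1.69) and -0.21 (SE 1.68) in mid spleen, which were positive against the day 18 control alone (0.88 and 1.59 in early, 1.48 and 2.55 in mid spleen). The direction for these genes therefore turned on the choice of control.

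Liver and spleen at the same stage were compared directly. At early, edgeR called 0 of 6 (0% of all genes) with 1 unadjusted p under 0.05 (9.02% of all genes), and DESeq2 called 0 (0.428%). The log2 differences, liver against spleen, were 0.83 (SE 0.34) for Nt5e, 0.88 (SE 0.60) for Adora2a, 1.36 (SE 1.33) for Entpd1 and 0.94 (SE 1.33) for Cd38. The last 3 rested on liver early replicate 1 and were -0.53, -1.45 and -1.55 without it. At mid, edgeR called 0 of 6 (0.00647% of all genes), with Nt5e and Dpp4 at an unadjusted p under 0.05 (5.81% of all genes), and DESeq2 called 1 (0.11%). The log2 differences were 1.96 (SE 0.44) for Nt5e, 2.71 (SE 1.76) for Entpd1, 1.32 (SE 1.64) for Cd38, -0.67 (SE 0.36) for Ada and -0.77 (SE 0.29) for Dpp4. That of Adora2a was 0.84 (SE 0.74, edgeR adjusted p = 0.73). All 3 mid liver libraries had more Nt5e and less Dpp4 than the single mid spleen library. Its Pdcd1 level, 32.8 CPM, was also far below the 235 to 414 CPM of the mid liver, and stage of activation and tissue cannot be told apart in this comparison.

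The other genes of the pathway were taken from 7 lists, and their counts are given for the late liver against control in the same edgeR test, beside the 37.5% of all genes that passed. Of the 12 other ectonucleotidases tested, 2 rose and 2 fell. Alpl, an alkaline phosphatase that also turns AMP into adenosine, had 0.0299, 0.273 and 0.0973 CPM in the controls and 6.20 and 1.30 CPM in the late liver (log2 fold change 4.54, SE 1.42). Enpp1, which cleaves ATP to AMP, rose by 1.23 (SE 0.24), while Enpp4 and Entpd5 fell by 2.24 (SE 0.31) and 1.13 (SE 0.29).

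Of the 21 enzymes that handle adenosine and AMP inside the cell, 11 rose and 3 fell, with a median of 0.69. Adk, adenosine kinase, which turns adenosine back into AMP, had 40.7, 37.0 and 27.0 CPM in the controls and 181 and 225 CPM in the late liver (log2 fold change 2.52, SE 0.47). Ak4, an adenylate kinase of mitochondria, rose by 5.05 (SE 0.96) from at most 0.284 CPM in the controls, and Pnp2, a purine nucleoside phosphorylase, by 1.56 (SE 0.51). The AMP deaminases Ampd1 and Ampd3 fell by 5.86 (SE 1.14) and 3.20 (SE 0.74), Ampd1 from 19.2, 20.8 and 30.6 CPM to 0.326 and 0.482 CPM, and Ahcyl2 fell by 0.71 (SE 0.21).

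Of the 7 other adenosine receptors and nucleoside transporters, 2 rose and none fell. Slc29a1, the equilibrative transporter that carries adenosine across the membrane (ENT1), had 53.2, 38.4 and 48.5 CPM in the controls and 998 and 591 CPM in the late liver, a log2 fold change of 3.93 (SE 0.62). It was already 316 CPM in liver early replicate 1, 55.2 CPM in replicate 2 and 99.6 CPM in mid spleen. Slc29a4 rose by 3.76 (SE 1.18) from at most 0.404 CPM. Adora1 and Adora3 were at most 1.95 and 2.67 CPM in any library, both in spleen early replicate 2.

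Of the 11 genes of ATP release and ATP receptors, 1 rose and 3 fell. Panx1, a channel that releases ATP, rose by 0.91 (SE 0.20), and Slc17a9, which loads ATP into vesicles, fell by 2.08 (SE 0.30), from 125, 109 and 84.1 CPM to 27.6 and 24.9 CPM. The ATP receptor P2rx4 fell by 1.09 (SE 0.31). P2ry13, a receptor for ADP, fell by 3.57 (SE 1.06), but its 9.97, 2.21 and 0.422 CPM in the controls had the order of the macrophage markers, whose part in it was not tested. The control values of Slc17a9 had this order too, as had those of Adk, which rose. The part of these cells in them was not tested either.

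Of the 33 genes of cyclic AMP signalling, through which ADORA2A acts, 6 rose and 8 fell. Pde4a, a phosphodiesterase that breaks down cyclic AMP, rose by 3.17 (SE 0.68), Crem, a factor induced by cyclic AMP, by 1.52 (SE 0.27) and Adcy1, an adenylate cyclase, by 1.46 (SE 0.37). Adcy6, another cyclase, fell by 5.33 (SE 0.87), from 13.9, 19.2 and 6.84 CPM to 0.174 and 0.510 CPM. Rapgef4 (EPAC2), a cyclic AMP sensor, fell by 4.70 (SE 0.82), and Pde2a by 4.31 (SE 0.98).

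Of the 22 other NAD enzymes, 7 rose and 3 fell. Art3 rose by 3 (SE 0.59), Naprt, which makes NAD from nicotinic acid, by 2.48 (SE 0.65) and Nmnat2 by 1.19 (SE 0.41). Art4 fell by 2.60 (SE 0.78), Trpm2, a channel opened by a product of NAD, by 1.84 (SE 0.60) and Bst1, the closest relative of Cd38, by 1.36 (SE 0.44). The controls had 21.5, 12.9 and 2.59 CPM of Trpm2 and 1.99, 1.41 and 0.973 CPM of Bst1, again in the order of the macrophage markers, whose part was not tested. Of the 8 other peptidases tested, grouped with DPP4 by family or only by name, 2 rose and none fell. Prep had 37.7, 51.0 and 49.4 CPM in the controls and 140 and 153 CPM in the late liver (log2 fold change 1.71, SE 0.37), and Dpp3 rose by 0.81 (SE 0.23). All the genes named from these lists had an edgeR adjusted p under 0.05 except Adora3, at 0.108, and Adora1, which was not tested. In the mid liver, where 31.3% of all genes passed, the lists gave, in the same order, 2, 9, 1, 2, 4, 6 and 3 genes higher and 3, 2, 0, 4, 7, 3 and 0 lower.

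**Figure D5:**
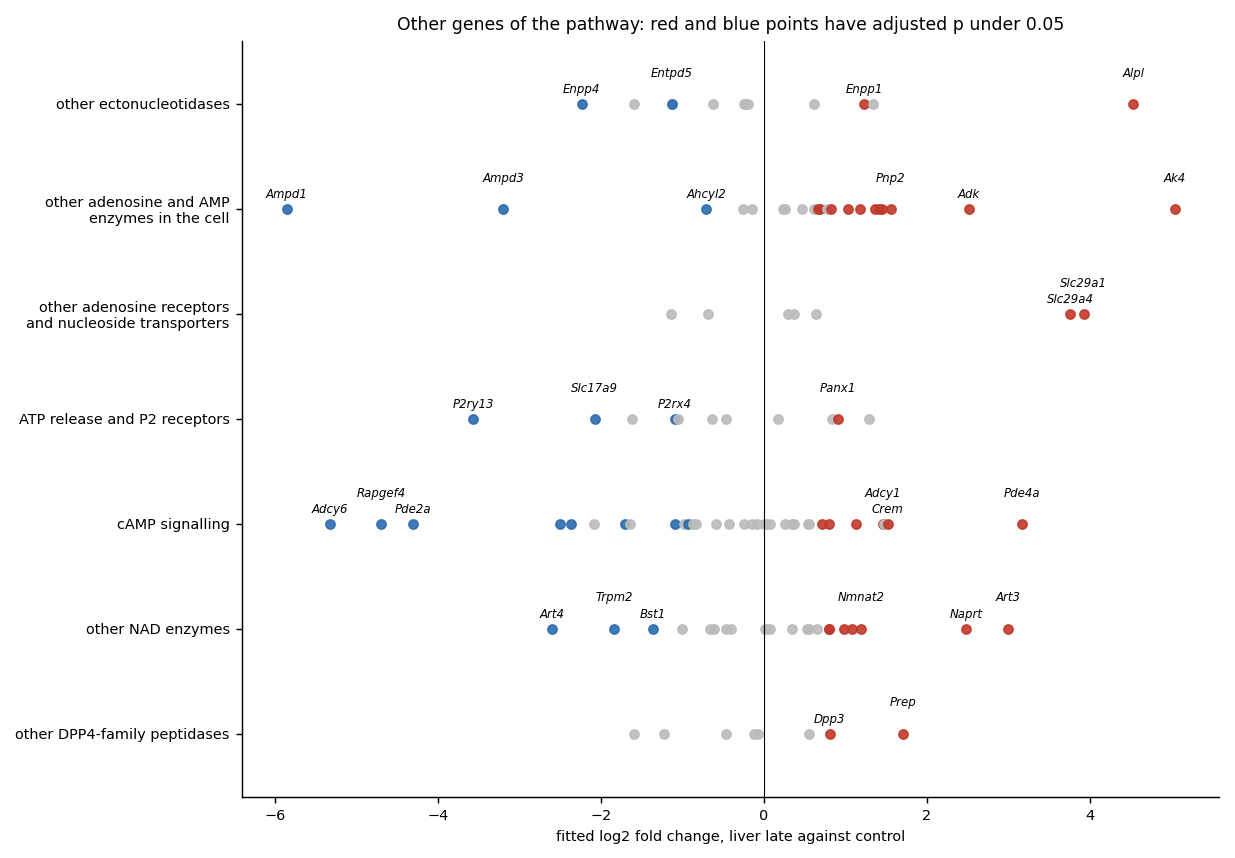
Fitted log2 fold change, late liver against control, of the genes tested in each of the 7 lists, 1 point per gene. Red points rose and blue points fell with an edgeR adjusted p under 0.05, grey points did not pass, and the genes named in the text are labelled. The points run from -5.86 for Ampd1 to 5.05 for Ak4.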

How the data were processed

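The authors sequenced low-input RNA libraries on a HiSeq and quantified transcripts with kallisto on mm10 (GRCm38), per the labels. Each deposited file holds estimated counts and TPM per transcript. The authors' software divided the estimated counts among similar transcripts and scaled the deposited TPM for length and depth. Here the estimated counts were added up by gene (GENCODE vM21, 98.25% of transcripts and 99.0% to 99.29% of counts per run), then over the 26 runs into 15 libraries, and rounded. Runs of 1 library were recognised by their titles. One oligo-dT library of naive cells entered no test.

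A gene entered the tests with 10 or more counts in 6 or more libraries. The two-sided, robust quasi-likelihood tests were run in edgeR 4.0.16 under R 4.3.3, with TMM normalization, group and series as terms and Benjamini-Hochberg adjustment at 0.05. The series in the titles was taken as the batch. Liver and undivided comparisons used 11 libraries and those with spleen 14. Log2 CPM had a prior count of 2. With 1 to 3 libraries a group, their number and not the depth limits precision. The pipeline was run on simulated counts with the same spread for every gene and no series effect. That run cannot show how it performs at the spread of these data. DESeq2 1.42.0, which the authors used, RLE factors, other filters, single runs, counts scaled from TPM, other controls and omission of each replicate were alternatives. The members and lists were chosen with earlier results of these data known. Named were the 7 genes, in each list up to 3 rises and 3 falls with the largest log2 fold change among those past the threshold in the late liver against control, the 3 genes of closest pattern and marker genes. Replicates of a group differed by far more than counting error (mean chi-square of 54.6 to 440 per gene), so none was a copy. Promoters came from RefSeq, which matched 6 of the 7 genes (not Adora2a). Python 3.11.15, pandas 2.3.3 and matplotlib 3.10.9 made tables and plots.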

Additional observations from a re-analysis of the deposited data

How the results depend on the processing

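The calls of Nt5e, Adora2a and Dpp4 rest on few libraries. With the day 18 control alone, chosen after seeing the data, edgeR called 0 of the genes in both the mid and late comparison, and 1 and 0 of all genes. Leaving out 1 replicate at a time gave 0 to 3 called in the mid and 0 to 2 in the late comparison. Without control replicate 3 it was 2 in both (16.5% and 28.9% of all genes), without control replicate 2 it was 2 at late (23.8%), and without mid replicate 2 it was 3 at mid (21.9%). Late calls fell to 0 without either late replicate and to 1 without control replicate 1 (1.05% of all genes), and mid calls to 0 without control replicate 1 or 2 (1 of all genes each) or mid replicate 1 or 3; in the fits without late replicate 1 or 2, or mid replicate 1 or 3, 0 of all genes passed. The directions of the 6 called values did not reverse in any alternative. Over these, the log2 fold change ran from 2.26 to 2.80 for Nt5e, 2.41 to 2.73 for Adora2a and -1.14 to -0.61 for Dpp4 at mid, and from 3.24 to 3.83, 2.16 to 2.75 and -1.39 to -0.67 at late. Without a count filter edgeR called 2 in the early liver, 5 in the mid and 5 in the late liver against control, 1 from mid to late, 2 in undivided cells, 4 in late liver against undivided, 2 in early and 1 in mid spleen, and 2 in mid liver against mid spleen. In the same order that setting called 5.02%, 19.4%, 21.3%, 1.47%, 1.12%, 8.51%, 1.96%, 1.92% and 2.30% of all genes. DESeq2 called 3 in the mid and 4 in the late liver against control (37.3% and 42.5% of genes), the latter including Ada, 2 in the early liver (2.55% of genes), 3 in late liver against undivided (13.5%) and 1 in mid liver against mid spleen (0.11%). With the libraries of both groups only, 1 was called in mid spleen (0.982% of genes). Without liver early replicate 2 the early liver had 2 called against control (13.2% of genes) and 1 against spleen (6.34%), so the early counts ran from 0 to 2 and from 0 to 1.

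Reversals concerned values that had not passed. With the day 18 control alone, Entpd1 and Cd38 became 2.22 and 2.51 in the early liver, 0.88 and 1.59 in the early spleen and 1.48 and 2.55 in the mid spleen, and Cd38 became 0.74 in the mid spleen with both groups only. Leaving out 1 replicate, Entpd1 in the early liver against control ran from -3.32 to 0.36, Cd38 from -2.73 to 0.76, Cd38 from mid to late from -0.78 to 0.92, and Cd38 in the mid spleen from -1.23 to 0.78. For early liver against early spleen it ran from -1.45 to 2.25 for Entpd1, -0.53 to 1.58 for Adora2a and -1.55 to 1.80 for Cd38. Ada in mid liver against mid spleen became 0.00 without the series term. The causes were not tested. Among the 13 other member differences, 30 of 173 alternative values reversed. These differences include Adora2a from mid to late liver and Nt5e in undivided cells against control. All 50 pathway list genes called in the late liver kept their direction wherever they had a value. With the series term left out, 1388 genes passed in the mid and 2699 in the late comparison, in place of 4568 and 5482. No paired analysis was possible because replicate numbers were given in accession order and pair no samples.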

Other observations

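One library of naive cells from spleen, with a TG title and no day in its label, was made by oligo-dT priming, with 23189213 estimated counts. Beside control replicate 1, whose title differs from its own by a suffix and by letter case, it had 16.1 against 11.9 CPM of Nt5e, 18.4 against 9.10 of Adora2a, 10.4 against 10.9 of Entpd1, 13.2 against 16.9 of Cd38 and 163 against 190.0 of Dpp4, without TMM scaling. Ada was lower, at 7.82 against 15.7 CPM, and close to the 9.19 and 9.52 CPM of the XC controls. Adora2b had 0 counts in it and 47 in the low-input library. The downstream start held 95% of the Entpd1 counts of the oligo-dT library and the upstream start 0%, against 32.3% and 67.7% in control replicate 1. The values are single libraries and no test was made.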
